A study of Mus musculus with 22 samples.

Results

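Zfp979, Zfp991, Zfp445 and Resf1 were followed in mouse liver as 4 genes chosen by their array signal, which is higher in livers that lack Trim24 than in wild-type livers. Every probe set annotated to them was taken, which gave 11 of the 45101 probe sets on the array and 4 of the 18194 genes with a name. The brightest probe set, by its mean over all 22 arrays, stands for each gene, and the other 7 are described beside it. Livers of 22 mice were hybridised, 1 animal per one-colour Affymetrix array. The animals of 5 weeks were 4 wild types (WT), 4 Trim24-/- mice, in which both copies of Trim24 were disrupted, and 4 Trim24-/- Rara+/- mice, which in addition had lost 1 copy of the retinoic acid receptor gene Rara. At 14 weeks there were 5 WT and 5 Trim24-/- mice. All came from intercrosses on a mixed C57BL/6 and 129/Sv background, and no Rara+/- group with intact Trim24 was analysed here. Since the contrasts of mutant with WT chose the 4 genes, their differences from WT are given as a description without a p-value.

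All 4 genes are linked to the silencing of repeated DNA or carry the structure of genes that do so. KRAB zinc finger proteins bind particular DNA sequences, many of them in retroelements, through their zinc fingers, and recruit the co-repressor TRIM28 through the KRAB domain. TRIM28 in turn brings in the histone methyltransferase SETDB1, which lays down the repressive mark H3K9me3. Zfp445 encodes a protein of this kind that helps to preserve DNA methylation at imprinted genes. Zfp979 and Zfp991 belong to a large cluster of closely similar zinc finger genes at the end of mouse chromosome 4. Resf1, the retroelement silencing factor, encodes a partner of SETDB1 that is needed to keep endogenous retroviruses silent in embryonic stem cells. TRIM24 is a relative of TRIM28 that binds nuclear receptors, among them the retinoic acid receptor alpha encoded by Rara, and it limits that receptor's activity in liver.

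The sequences just upstream of Zfp979 and Resf1 are shown because both genes were higher in the same livers and yet their start regions differ in base composition. Both come from RefSeq (build GRCm38.p6), read 5′ to 3′ on the gene's strand up to the base before the start of transcription, with CpG dinucleotides in capitals. The Zfp979 window lies on the minus strand at chr4:147642509-147642758 and that of Resf1 on the plus strand at chr6:149309164-149309413.
Zfp979: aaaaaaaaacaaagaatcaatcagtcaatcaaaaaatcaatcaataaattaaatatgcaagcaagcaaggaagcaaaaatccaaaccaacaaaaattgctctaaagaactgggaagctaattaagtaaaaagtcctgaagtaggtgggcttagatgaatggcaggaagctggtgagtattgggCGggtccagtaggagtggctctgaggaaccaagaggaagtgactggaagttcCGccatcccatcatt
Resf1: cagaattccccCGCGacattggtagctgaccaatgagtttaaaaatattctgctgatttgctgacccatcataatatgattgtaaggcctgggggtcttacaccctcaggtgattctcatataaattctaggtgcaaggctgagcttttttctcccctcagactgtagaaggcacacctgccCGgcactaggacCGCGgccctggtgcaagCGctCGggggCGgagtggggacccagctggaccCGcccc
The Zfp979 window held 2 CpG dinucleotides at a GC content of 39.6%, and the Resf1 window held 9 at 54.4%. The median over all 32851 RefSeq promoter windows of the same length was 6 CpG and 52.4% GC, so the genes lay on either side of it. The window of Zfp445, at chr9:122866007-122866256 on the minus strand, held 5 CpG at 50.4% GC. Zfp991 is named without a sequence.

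Both strands of these 3 windows were searched for 4 sets of letters. The core of the interferon-stimulated response element (GAAA, any 2 bases, GAAA) occurs in 2.98% of all windows, and TTCNNNGAA, the gamma-activated sequence bound by STAT factors, in 7.02%. AGGTCA, the core bound by retinoic acid receptors, occurs in 14.0%, and its direct repeat spaced by 5 bases, which contains the former, in 0.00913%. The search found 1 match, a TTCNNNGAA that began 227 bases before the start of Zfp445. These letters were not in the windows of Zfp979 and Resf1.

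The median signal per array was 12.6 to 16.1 at 5 weeks and 19.7 to 25.9 at 14 weeks, on a scale on which every array has the same trimmed mean. Between 49.9% and 54.4% of probe sets read below 16 at 5 weeks and between 37.8% and 45.3% at 14 weeks, so signals below that level are dim on these arrays. The Trim24 probe set did not fall in the mutants. Its signal was 317 ± 111 (SD, n = 4) in WT, 363 ± 84.7 (n = 4) in Trim24-/- and 450.4 ± 34.1 (n = 4) in Trim24-/- Rara+/- livers at 5 weeks, and 168 ± 24.2 (n = 5) in WT and 235 ± 59.3 (n = 5) in Trim24-/- livers at 14 weeks. Whether its probes fall inside the disrupted stretch of the gene is unknown here, so this gene does not check the labels. Xist read 948 to 2169 at 5 weeks and 13.4 to 44.5 at 14 weeks, while the Y-linked Eif2s3y read 0.350 to 6.59 and 245 to 344, so age and this difference in sex-linked signal cannot be told apart. The 4 hepatocyte markers measured were bright in every group, with sums from 28936 to 48982. Against WT, 0 of 4 had a positive estimate in Trim24-/- or Trim24-/- Rara+/- livers at 5 weeks or in Trim24-/- livers at 14 weeks. The median log2(signal + 16) differences were -0.083, -0.19 and -0.16 in that order, and with limma none of the 4 had an unadjusted p under 0.05.

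Resf1, the SETDB1 partner, was higher in Trim24-/- livers at both ages. At 5 weeks the WT animals read 149, 111, 110.2 and 151, and the Trim24-/- animals 318, 496, 657 and 186. Every Trim24-/- liver was above every WT liver, although animal 37 came close to them. The mean was 130.3 ± 22.7 (SD, n = 4) in WT and 415 ± 206 (n = 4) in Trim24-/- livers. This is a difference of 1.43 ± 0.28 (SE) in log2(signal + 16), or 2.70-fold on that scale. The Trim24-/- Rara+/- animals read 379, 361, 331 and 399. Their mean of 367 ± 29.0 (n = 4) lay within the range of the Trim24-/- group, with a much smaller spread, and 1.40 ± 0.28 above WT. At 14 weeks the WT animals read 107, 123, 143, 116 and 113, against 783, 905, 525, 759 and 661 in Trim24-/- animals. The groups were far apart, at 120.3 ± 13.7 (n = 5) and 727 ± 142 (n = 5), a log2 difference of 2.43 ± 0.14 or 5.38-fold.

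Zfp445, the imprint-protecting zinc finger gene, was higher in both mutant groups at 5 weeks and in Trim24-/- livers at 14 weeks. WT animals read 556, 479.7, 484 and 551, and Trim24-/- animals read 1159, 1526, 1361 and 987. The lowest mutant liver was thus well above the highest WT liver. Means were 518 ± 41.6 (SD, n = 4) and 1258 ± 235 (n = 4), a log2 difference of 1.24 ± 0.13 (SE) or 2.36-fold. In Trim24-/- Rara+/- animals the signal was 1407, 1271, 1385 and 1447, with a mean of 1378 ± 75.3 (n = 4) and a log2 difference from WT of 1.39 ± 0.13. At 14 weeks WT animals read 646, 1049.5, 866, 1025 and 935, and Trim24-/- animals 1371, 1321, 1463, 1395 and 1502. The groups did not overlap here either, but WT livers had moved closer to the mutant level. The means of 904 ± 162 (n = 5) and 1410.5 ± 72.4 (n = 5) gave a log2 difference of 0.65 ± 0.13 or 1.57-fold.

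Zfp979, 1 of the chromosome 4 cluster genes, has a single probe set, which was dim in all WT livers. At 5 weeks it read 0.360, 1.91, 3.69 and 0.926 in WT and 24.6, 17.3, 34.4 and 7.86 in Trim24-/- animals. Trim24-/- Rara+/- animals read 19.4, 13.1, 15.4 and 20.8, also above every WT animal. At 14 weeks the values were 9.69, 10.5, 4.96, 4.71 and 4.61 in WT and 25.3, 72.4, 75.1, 73.1 and 54.1 in Trim24-/- animals. Because all 9 WT animals read below 16, no fold change is given. At 5 weeks the log2(signal + 16) difference from WT was 1.01 ± 0.19 (SE) for Trim24-/- and 0.90 ± 0.19 for Trim24-/- Rara+/-, and at 14 weeks it was 1.68 ± 0.21 for Trim24-/-. Their size rests on the added constant, and with a constant of 1 they became 3.001, 2.87 and 2.93.

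Zfp991, the other cluster gene, showed the same order of groups on its brightest probe set. WT animals at 5 weeks read 11.4, 16.5, 1.27 and 8.55, against 61.9, 78.7, 101 and 31.4 in Trim24-/- animals. Trim24-/- Rara+/- animals read 35.6, 32.7, 40.8 and 45.2, all above WT and in the lower part of the Trim24-/- range. At 14 weeks WT animals read 8.51, 32.6, 12.02, 20.7 and 24.4, and Trim24-/- animals 79.3, 162, 178, 188 and 107. The mutant groups lay above WT without overlap at both ages. The log2 differences from WT were 1.69 ± 0.25 (SE) and 1.13 ± 0.25 for the Trim24-/- and Trim24-/- Rara+/- groups at 5 weeks, and 2.14 ± 0.24 for Trim24-/- at 14 weeks. Most WT animals at 5 weeks were below 16 here too, so no fold change is given.

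**Figure D1:**
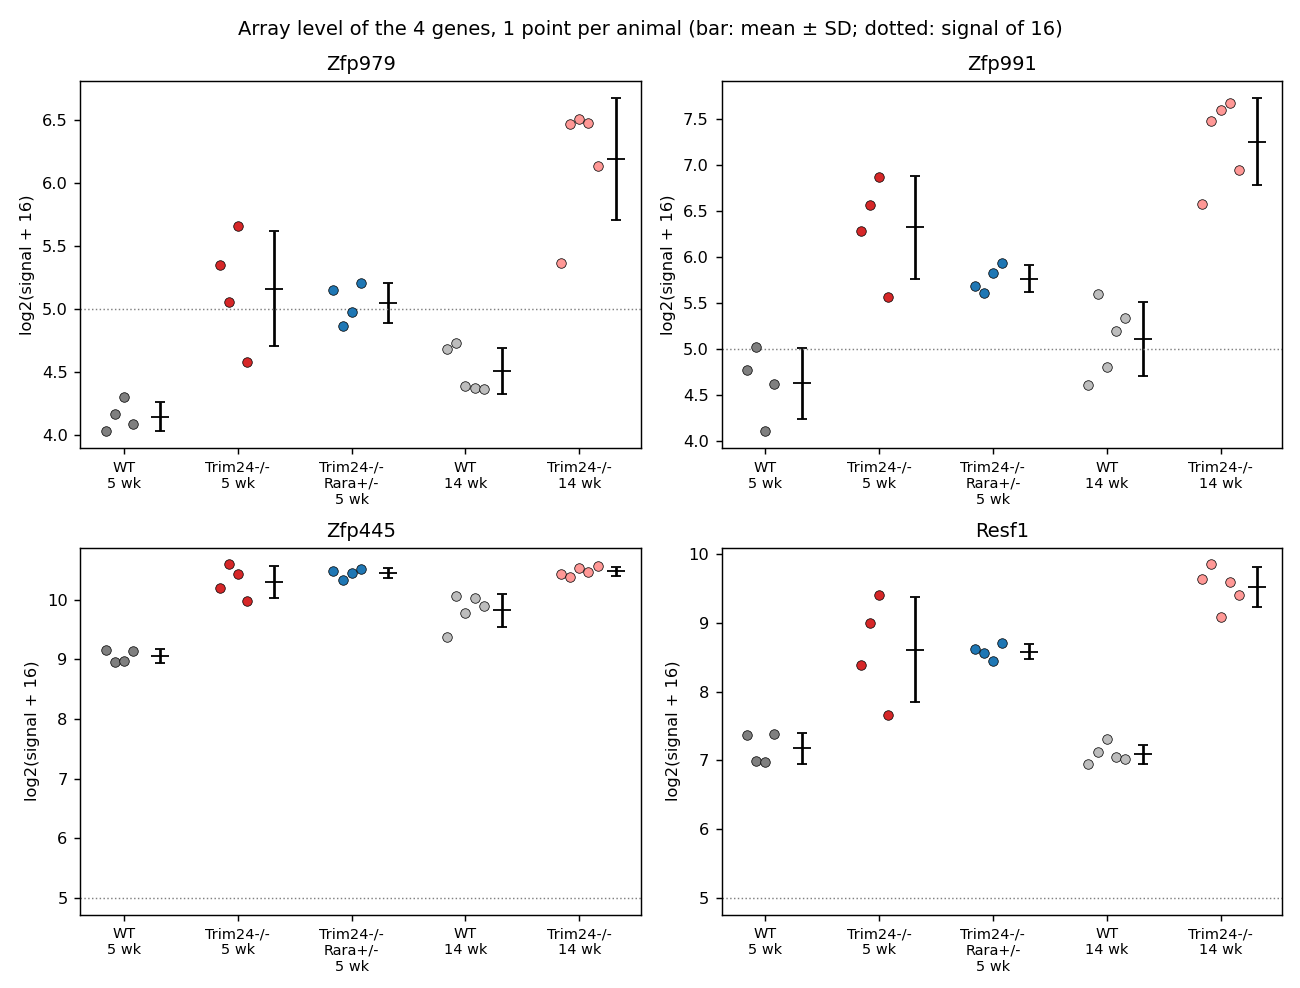
Level of the brightest probe set of each gene, as log2(signal + 16), in all 22 animals by group; points are animals, bars beside them the mean and SD, and the dotted line marks a signal of 16. For each gene the Trim24-/- and Trim24-/- Rara+/- animals lie above all WT animals of the same age, and at 5 weeks Trim24-/- animal 37 is the lowest of its group in all 4 genes.

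All 4 genes were free of overlap with WT in each of the 3 contrasts with WT. The share of all genes higher without overlap was 2.98% for Trim24-/- against WT at 5 weeks, 1.98% for Trim24-/- Rara+/- against WT and 1.07% for Trim24-/- against WT at 14 weeks. These contrasts chose the genes, so nothing is read from the counts. Within the Trim24-/- group at 5 weeks the 4 genes varied together in 1 respect, since animal 37 was the lowest in each of them. The same animal had the highest mean log2 level of its group for 6 lists of cell type markers. These were the macrophage (9.53), stellate cell (8.09), endothelial (7.76), B cell (5.64), T and NK cell (5.42) and cholangiocyte (5.36) markers. For hepatocyte markers animal 37 (13.33) lay within the group range of 12.98 to 13.45, and for erythroid markers it was the lowest (5.36). It was also the lowest of its group for the interferon-stimulated genes described below, at 8.04 against 8.30 to 9.20. Its summed stellate cell signal was 4755, against at most 2176 in the other Trim24-/- animals of that age. Without animal 37 the log2 differences from WT were 1.75 for Resf1, 1.35 for Zfp445, 1.21 for Zfp979 and 1.94 for Zfp991. The part of those cell types in the members' values was not tested.

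Markers of other liver cells were read because the array measures whole tissue, in which more cells of a type and more RNA per cell cannot be told apart. The summed signal of 12 macrophage markers was 4392 to 8465 in WT, 6084 to 12018 in Trim24-/- and 5687 to 9674 in Trim24-/- Rara+/- livers at 5 weeks, and 3835 to 5224 in WT and 4636 to 8671 in Trim24-/- livers at 14 weeks. Against WT the estimate was positive for 11 of 12 in each mutant group at 5 weeks and for 12 of 12 at 14 weeks, and Mpeg1 at 5 weeks in Trim24-/- livers was the 1 called. With limma an unadjusted p under 0.05 was found for 4 and 8 of the 12 in Trim24-/- livers at 5 and 14 weeks. It was found for 2 in Trim24-/- Rara+/- livers, and the median log2 differences were 0.39, 0.47 and 0.16 in that order. The 8 measured T and NK cell markers summed to 63.6 to 78.9 in WT, 86.4 to 252 in Trim24-/- and 43.6 to 142 in Trim24-/- Rara+/- livers at 5 weeks, and to 105 to 124 in WT and 138 to 161 in Trim24-/- livers at 14 weeks. None of these 8 was called with limma, and at 5 weeks 3 had an unadjusted p under 0.05 in Trim24-/- livers. In summed signal and in mean log2 level the Trim24-/- animals lay above the WT animals without overlap at both ages. The Trim24-/- Rara+/- range overlapped both other groups of its age. Cd4 was below 16 in every animal at 5 weeks.

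The 5 measured B cell markers summed to 48.1 to 132 in WT, 149 to 230.1 in Trim24-/- and 97.2 to 137 in Trim24-/- Rara+/- livers at 5 weeks, and to 131 to 330.3 in WT and 206 to 786 in Trim24-/- livers at 14 weeks. At 5 weeks the Trim24-/- animals thus lay above both other groups without overlap. The 8 stellate cell markers summed to 1489 to 1997 in WT, 1534 to 4755 in Trim24-/- and 1725 to 2027 in Trim24-/- Rara+/- livers at 5 weeks, and to 907 to 1516 and 1093 to 1401 in WT and Trim24-/- livers at 14 weeks. The 7 endothelial markers summed to 1311 to 1892, 1118 to 1843 and 1703 to 1987 in the 3 groups at 5 weeks and to 1373 to 1742 and 1479 to 1639 at 14 weeks, in the same order of groups. The 4 cholangiocyte markers gave 47.6 to 88.4, 63.5 to 102 and 44.6 to 74.6 at 5 weeks and 46.5 to 149 and 49.4 to 119 at 14 weeks. Each of these 3 lists overlapped between groups of 1 age in summed signal. In mean log2 level the stellate list did not overlap between WT (6.97 to 7.07) and Trim24-/- Rara+/- livers (7.20 to 7.33) at 5 weeks. The 3 measured erythroid markers summed to 117 to 358 in WT, 146 to 331 in Trim24-/- and 416 to 455 in Trim24-/- Rara+/- livers at 5 weeks, and to 712 to 1213 and 1022 to 1147 in WT and Trim24-/- livers at 14 weeks. The Trim24-/- Rara+/- animals were above both other groups of their age without overlap in summed signal. In mean log2 level of the erythroid markers they ran from 5.92 to 6.35 and overlapped WT, which reached 5.93. With limma none of the markers of these 5 lists was called in a contrast of mutant with WT or of the mutant groups. For Trim24-/- against WT at 5 weeks an unadjusted p under 0.05 was found for 1 B cell, 2 stellate, 1 cholangiocyte, 0 endothelial and 0 erythroid markers. Between the mutant groups it was found for 0, 1, 1, 1 and 2 of them in that order. The part of these cells in the members' differences was not tested.

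The other 7 probe sets followed the brightest ones in most but not all cases. They were above WT in the mean for 6 of 7 in each mutant group at 5 weeks, and for 7 of 7 at 14 weeks, and without overlap for 3, 3 and 4 of them. These contrasts chose the genes and the share over all probe sets is not given, so nothing is read from these counts. The 3 further Resf1 probe sets differed from WT by 1.06, 1.11 and 1.14 in Trim24-/- livers at 5 weeks and by 1.07, 1.22 and 1.59 at 14 weeks, all in log2 units and all smaller than on the brightest one. Both further Zfp445 probe sets were higher by 0.69 ± 0.22 (SE) and 0.86 ± 0.16 at 5 weeks. At 14 weeks they differed by 0.36 ± 0.22 and 0.49 ± 0.17, with overlap between the groups. The dimmest Zfp991 probe set, 1440518_at, stayed at or below 10.04 in every animal at 5 weeks and did not separate the groups, with a difference of -0.11 ± 0.13 in Trim24-/- livers.

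For Zfp991 the 2 brighter probe sets disagreed in the compound mutant. On 1451477_at the WT animals at 5 weeks read 31.0, 37.3, 16.1 and 44.1, against 57.9, 85.2, 52.3 and 33.2 in Trim24-/- and, in Trim24-/- Rara+/- animals, 36.3, 28.9, 20.4 and 21.5. Here the Trim24-/- Rara+/- group sat among the WT animals, with a log2 difference of -0.15 ± 0.23 (SE) from WT. On the brightest probe set, 1424784_at, the same animals were 1.13 ± 0.25 above WT. The Zfp991 level in Trim24-/- Rara+/- livers thus depends on the probe set read. Genes of this cluster are closely similar in sequence, and which members each probe set detects was not tested.

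**Figure D2:**
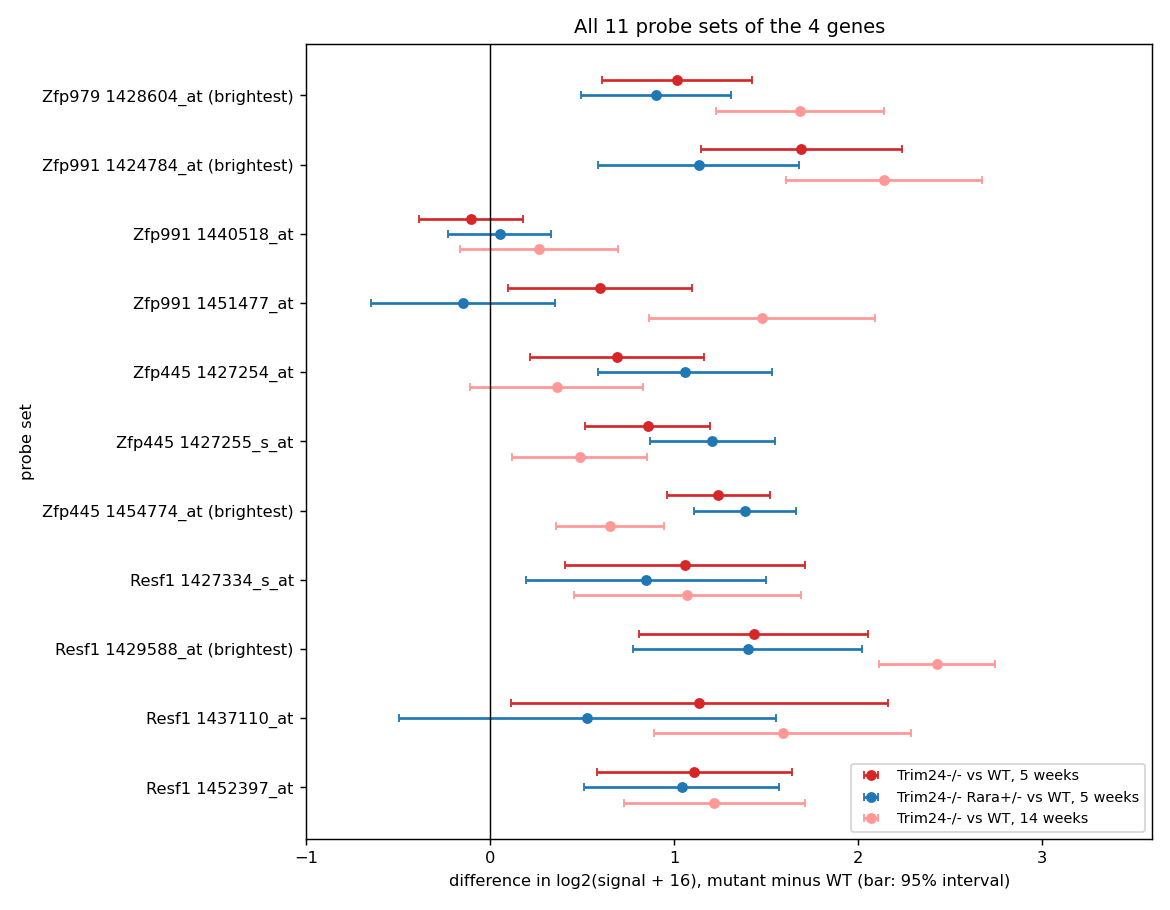
Difference from WT in log2(signal + 16) for each of the 11 probe sets of the 4 genes in the 3 contrasts with WT; points are estimates and bars 95% intervals. Most points lie above 0, and the Zfp991 probe set 1451477_at lies at 0.59 for Trim24-/- and at -0.15 for Trim24-/- Rara+/- at 5 weeks.

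The Trim24-/- Rara+/- group had no called change from Trim24-/- in any of the 4 genes. This comparison of Trim24-/- Rara+/- with Trim24-/- livers was tested across all genes with limma, with an adjusted p under 0.05 as the threshold. It shares the Trim24-/- arrays that chose the genes. The Rara probe set does not check the label of the compound mutant, since it read 12.3 ± 11.7 (SD, n = 4) in WT, 13.7 ± 8.45 (n = 4) in Trim24-/- and 18.2 ± 9.97 (n = 4) in Trim24-/- Rara+/- livers at 5 weeks. The animals that lack 1 copy were not lower, on a probe set whose group means there were near or below 16. At 14 weeks it read 46.8 ± 10.3 (n = 5) in WT and 40.7 ± 13.6 (n = 5) in Trim24-/- livers. None of the 4 was called, against 0.143% of all genes, and with limma 1 of them, Zfp991, had an unadjusted p under 0.05. The groups overlapped for all 4, where 3.31% of all genes were higher and 5.14% lower without overlap. Resf1 differed by -0.031 ± 0.28 (SE) in log2 units, with a 95% interval from -0.65 to 0.59 and a limma adjusted p of 0.988. Zfp445 differed by 0.15 ± 0.13, with an interval from -0.13 to 0.43 and a limma adjusted p of 0.735. Its probe set 1427254_at differed by 0.37 ± 0.22, with an interval from -0.10 to 0.84, and 1427255_s_at by 0.35 ± 0.16, with an interval from 0.011 to 0.69. Their limma adjusted p over all probe sets was 0.679 and 0.539.

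The cluster genes gave lower estimates. Zfp979 differed by -0.11 ± 0.19 (SE), with a 95% interval from -0.52 to 0.29 and a limma adjusted p of 0.887. Zfp991 differed by -0.56 ± 0.25, with an interval from -1.10 to -0.015, an unadjusted p of 0.0448 and a limma adjusted p of 0.422. On its probe set 1451477_at the difference was -0.74 ± 0.23, with an interval from -1.24 to -0.24 and a limma adjusted p of 0.297 over all probe sets. A lower Zfp991 level in the compound mutant therefore did not pass the threshold, and a decrease of the size of those bounds remains possible at this number of animals.

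Interferon-stimulated genes, the genes switched on by interferon through STAT factors, were read in the same animals because the study concerns that pathway. Of 40 listed genes 37 were measured. The mean log2(signal + 16) over them was 7.19 ± 0.18 (SD, n = 4) in WT, 8.61 ± 0.53 (n = 4) in Trim24-/- and 7.29 ± 0.31 (n = 4) in Trim24-/- Rara+/- livers at 5 weeks. The Trim24-/- animals lay above all others of that age, and the Trim24-/- Rara+/- animals were near WT. For Trim24-/- against WT at 5 weeks all 37 were positive, with a median difference of 1.41 against -0.010 over all genes. With limma 20 of them were called higher, against 0.478% of all genes, and 35 had an unadjusted p under 0.05. Leaving out WT animal 45 lowered the 20 called to 3. Against Trim24-/- livers, 9 of the 37 genes were called lower with limma in Trim24-/- Rara+/- livers, against 0.104% of all genes, and the median difference was -1.40 against -0.011 over all genes. That count was 0 without Trim24-/- animal 8, 0 without Trim24-/- Rara+/- animal 54, 66 or 82, 2 without Trim24-/- animal 1, 15 without Trim24-/- Rara+/- animal 73 and 24 without Trim24-/- animal 37. Against WT at 5 weeks none of the 37 was called with limma in Trim24-/- Rara+/- livers, 1 had an unadjusted p under 0.05, and the median difference was 0.11. The 4 members differed by 0.90 to 1.40 there on their brightest probe sets, and the other Zfp991 probe sets by -0.15 and 0.051. At 14 weeks the median of the interferon-stimulated genes was 0.41 for Trim24-/- against WT. Of the 37, 34 were positive, 22 had an unadjusted p under 0.05 with limma and 1 was called, where 0.181% of all genes were called higher. The members' differences were 0.65 to 2.43. Since these contrasts chose the members, nothing is read from their size beside that of the list. A test of the members against the list was not made.

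**Figure D3:**
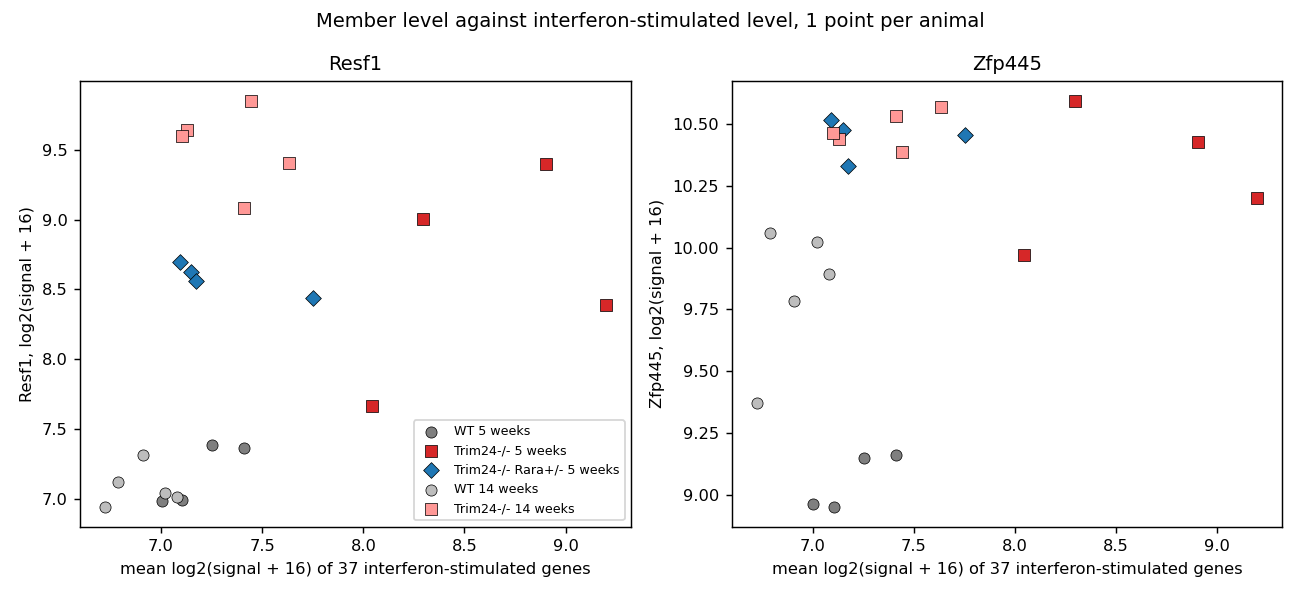
Mean log2(signal + 16) of the 37 interferon-stimulated genes on the horizontal axis against log2(signal + 16) of Resf1 (left) and Zfp445 (right) on the vertical axis, 1 point per animal. At 5 weeks the Trim24-/- Rara+/- animals lie within the vertical range of the Trim24-/- animals and, on the horizontal axis, run from 7.09 to 7.75 against 8.04 to 9.20.

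The size of the difference from WT was not the same at the 2 ages on the brightest probe sets. The rise of Resf1 was larger at 14 than at 5 weeks by 0.997 ± 0.327 (SE) in log2 units, that of Zfp979 by 0.67 ± 0.29 and that of Zfp991 by 0.45 ± 0.37. For Zfp979 and Zfp991 the order of the ages rests on the added constant. With a constant of 1 the Zfp979 differences of Trim24-/- from WT were 3.001 at 5 weeks and 2.93 at 14 weeks. Those of Zfp991 were 2.95 and 2.87 in that order, so neither rise was larger at 14 weeks. With 64 they were 0.36 and 0.79 for Zfp979 and 0.82 and 1.28 for Zfp991, larger at 14 weeks. The rise of Zfp445 differed between the ages by -0.59 ± 0.19. The value for Resf1 belongs to its brightest probe set, and the other 3 gave 0.012 ± 0.43, 0.11 ± 0.35 and 0.45 ± 0.59. Those of Zfp445 gave -0.33 ± 0.32 and -0.37 ± 0.24, and those of Zfp991 0.37 ± 0.25 and 0.88 ± 0.39. These are descriptions, since the rule used both ages, and they carry the age difference in sex-linked signal.

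The WT animals of the 2 ages were compared directly, a contrast the choice of genes did not use. It shares the WT arrays of the contrasts that chose the genes. Age cannot be told apart here from the difference in sex-linked signal. Zfp445 was higher at 14 weeks by 0.77 ± 0.13 (SE), or 1.70-fold, with a limma adjusted p of 2.51e-04, and all 5 older animals read above all 4 younger ones. It was the only member called of 4, against 28.5% of all genes called in this contrast, and 2 of 4 were higher without overlap against 13.1% of all genes. The median of all genes was 0.13 higher at 14 weeks. With each array centred on its median, the Zfp445 difference was 0.44 with a limma adjusted p of 0.00912. Its further probe sets differed by 1.36 ± 0.23 and 1.45 ± 0.17. Resf1 differed by -0.094 ± 0.23, with a 95% interval from -0.57 to 0.39 and a limma adjusted p of 0.796. Zfp979 differed by 0.36 ± 0.21 and Zfp991 by 0.48 ± 0.26, with limma adjusted p of 0.195 and 0.171; centred arrays gave 0.038 and 0.15.

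The genes of the retroelement silencing machinery were read without Resf1, whose own calls the choice of members fixed. Of these 27 measured genes none was called with limma in Trim24-/- livers at 5 or 14 weeks, where 0.478% and 0.181% of all genes were called higher, nor in Trim24-/- Rara+/- livers against WT or against Trim24-/-. The number with an unadjusted p under 0.05 was 4 and 3 in Trim24-/- against WT at 5 and 14 weeks, 2 in Trim24-/- Rara+/- against WT and 2 against Trim24-/-. The estimate for Trim24-/- against WT was positive for 17 of 27 at 5 weeks and 16 of 27 at 14 weeks. The medians were 0.063 and 0.045, beside -0.010 and 0.0012 for all genes. The mean log2 level over the 27 genes ran from 6.66 to 6.71 in WT, 6.68 to 6.80 in Trim24-/- and 6.63 to 6.73 in Trim24-/- Rara+/- livers at 5 weeks, and from 6.74 to 6.87 in WT and 6.79 to 6.93 in Trim24-/- livers at 14 weeks. These ranges overlap at both ages. Trim28, the co-repressor that KRAB proteins recruit, differed by -0.055 ± 0.14 (SE) and -0.12 ± 0.10. Setdb1, the H3K9 methyltransferase, differed by 0.039 ± 0.096 and 0.10 ± 0.10. Atf7ip, which stabilises SETDB1, differed by 0.39 ± 0.15 and 0.31 ± 0.14, with limma adjusted p of 0.333 and 0.612.

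A further 302 genes named Zfp and a number were measured beside the members. With limma none of them was called at 5 weeks in Trim24-/- livers, where 0.478% of all genes were called higher and 0.121% lower, and 32 had an unadjusted p under 0.05. In Trim24-/- Rara+/- livers none was called against WT, where 0.0495% of all genes were called higher, and 27 had an unadjusted p under 0.05. At 14 weeks none was called higher in Trim24-/- livers and 1 was called lower, where 0.0605% of all genes were lower, with an unadjusted p under 0.05 for 28. The 1 called was Zfp276, at 108 ± 14.7 (SD, n = 5) against 181 ± 9.56 (n = 5) in WT, a log2 difference of -0.68 with a limma adjusted p of 0.0241. The medians over the 302 genes were 0.015 and 0.035 for Trim24-/- against WT at 5 and 14 weeks. Of the listed KRAB zinc finger genes with known targets 12 were measured beside Zfp445. None of these 12 was called with limma in a contrast of mutant with WT, and 1, 3 and 2 had an unadjusted p under 0.05 for Trim24-/- and Trim24-/- Rara+/- at 5 weeks and Trim24-/- at 14 weeks.

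Imprinted genes were read because the Zfp445 protein is known to act on them. Of 35 listed 33 were measured, with medians of -0.0070 and 0.024 for Trim24-/- against WT at 5 and 14 weeks. With limma 1 was called in Trim24-/- livers at each age and none in Trim24-/- Rara+/- livers against WT. The number with an unadjusted p under 0.05 was 3 and 7 for Trim24-/- against WT at 5 and 14 weeks, 2 for Trim24-/- Rara+/- against WT and 1 against Trim24-/-. The 1 called was Phlda2, a placental growth regulator, which was higher in Trim24-/- livers by 0.45 ± 0.09 (SE) at 5 weeks and by 0.85 ± 0.15 at 14 weeks. Its limma adjusted p was 0.0468 and 0.0379, its signal was at most 12.4 in all animals at 5 weeks, and over single changes of processing or animals the adjusted p ran from 0.0301 to 0.173 and from 2.87e-04 to 0.127. In Trim24-/- Rara+/- livers it was called lower than in Trim24-/- livers, by -0.54 ± 0.09, with a limma adjusted p of 0.0466 that ran from 0.0101 to 0.173 over the same changes.

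Genes next to the members on the chromosome were read in RefSeq order, up to 5 measured genes on each side. For Resf1 all 5 measured neighbours lie on the same side. None of these 5 was called with limma in any contrast of mutant with WT, with an unadjusted p under 0.05 for 2 in Trim24-/- Rara+/- livers and 0 in the others, and their median difference was -0.032 in Trim24-/- livers at 5 weeks and 0.064 at 14 weeks. In Trim24-/- Rara+/- livers Etfbkmt differed from WT by 1.33 ± 0.29 (SE) and Amn1, the nearest of the 5, by -0.62 ± 0.12. Their limma adjusted p was 0.171 and 0.108. Around Zfp445, 10 neighbours were measured. The third of them on 1 side, 1110059G10Rik, was called higher in Trim24-/- livers at 5 weeks. Its signal was 459 ± 41.8 (SD, n = 4) against 269 ± 22.8 (n = 4) in WT, a log2 difference of 0.74 ± 0.10 (SE) with a limma adjusted p of 0.0128. Leaving out WT animal 45 gave a limma adjusted p of 0.0549, and leaving out Trim24-/- animal 8 gave 0.0521. At 14 weeks its difference was 0.40 ± 0.11 with a limma adjusted p of 0.306. The measured genes between it and Zfp445 are Zkscan7 and Zfp105, which differed by 0.45 ± 0.19 and 0.36 ± 0.14 at 5 weeks, with limma adjusted p of 0.400 and 0.377. Tcaim, the nearest of the 5 measured genes on the other side of Zfp445, differed by 0.61 ± 0.21 and 0.55 ± 0.11 at the 2 ages, with limma adjusted p of 0.277 and 0.0911.

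In the chromosome 4 cluster 5 of 31 listed names were measured, of which 3 are not members. Zfp982 lies between Zfp991 and Zfp979 among measured genes. It read 1.71 ± 0.86 (SD, n = 4) in WT and 8.58 ± 4.47 (n = 4) in Trim24-/- livers at 5 weeks, and 12.2 ± 5.34 (n = 5) and 27.1 ± 8.15 (n = 5) at 14 weeks. Its differences from WT had limma adjusted p of 0.182 and 0.272 for Trim24-/- at the 2 ages and 0.101 for Trim24-/- Rara+/-. Between the WT ages it was called higher at 14 weeks, by 0.65 ± 0.16 (SE) with a limma adjusted p of 0.00392. Rex2 and Zfp980 read at most 14.5 in every animal. On the far side of Zfp991 lie Znf41-ps, a zinc finger pseudogene, and Gm13238. Both were called higher in Trim24-/- livers at 14 weeks. Znf41-ps read 62.5 ± 15.0 against 22.6 ± 3.88 in WT (n = 5 each), a log2 difference of 1.01 ± 0.14 (SE). Gm13238 read 37.4 ± 13.2 against 5.77 ± 4.39 (n = 5 each), a difference of 1.28 ± 0.18, and the limma adjusted p of both was 0.0111. At 5 weeks they differed by 1.23 ± 0.26 and 0.92 ± 0.28, with limma adjusted p of 0.0635 and 0.215. In Trim24-/- Rara+/- livers at 5 weeks Gm13238 read 6.54 ± 3.89 (n = 4), near the WT mean of 4.91 ± 5.94 (n = 4), and its difference from Trim24-/- livers of -0.79 ± 0.28 had a limma adjusted p of 0.283. Over the 26 measured neighbours that are not members, 1 was called higher in Trim24-/- livers at 5 weeks, against 0.478% of all genes, and 2 at 14 weeks, against 0.181%. None was called in Trim24-/- Rara+/- livers against WT. The number with an unadjusted p under 0.05 was 9 and 9 for Trim24-/- at 5 and 14 weeks and 11 for Trim24-/- Rara+/- against WT, and the medians were 0.17, 0.16 and 0.12 in that order.

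**Figure D4:**
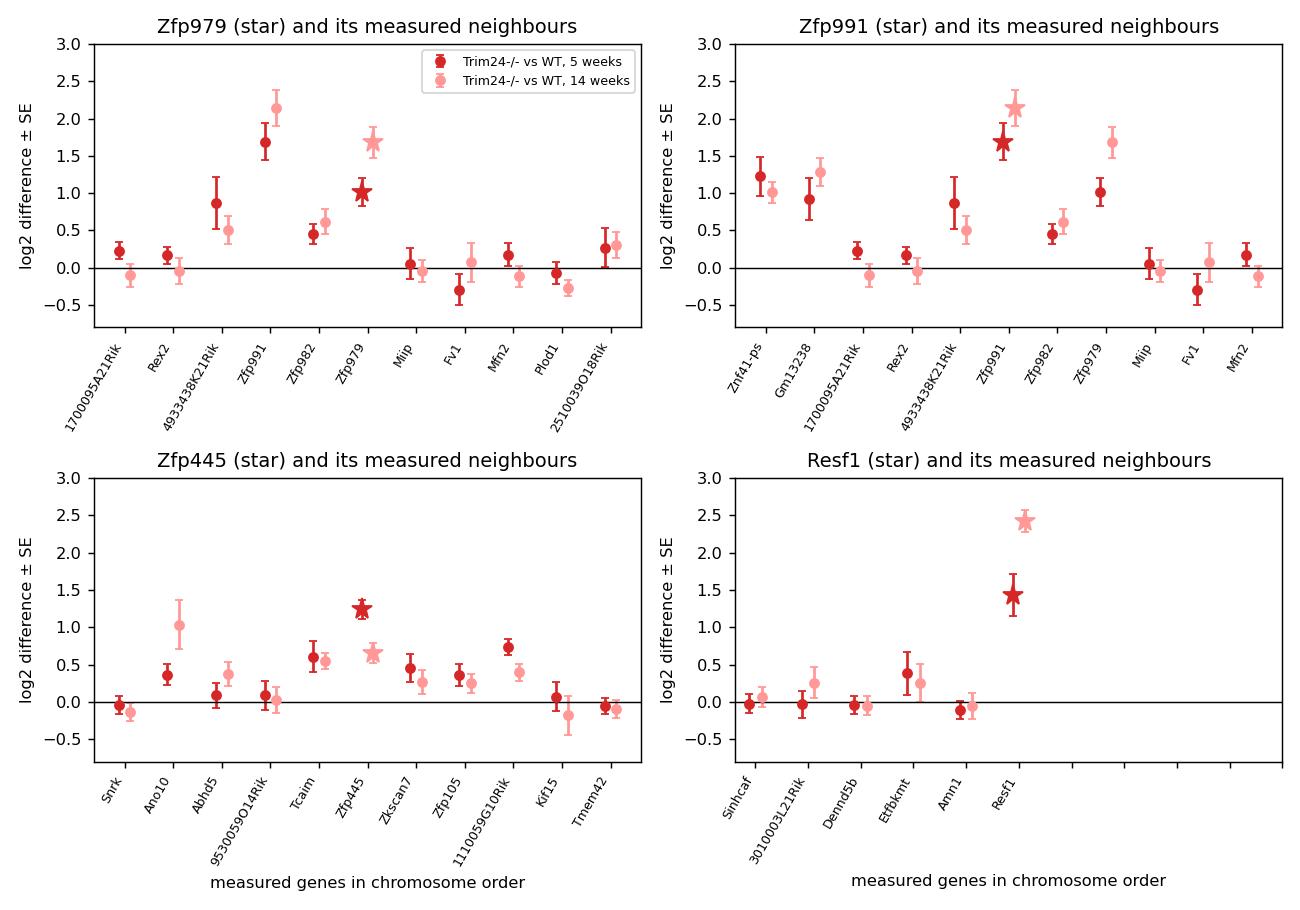
Log2 difference of Trim24-/- from WT, with its SE, at 5 weeks (dark) and 14 weeks (light) for each member (star) and its measured neighbours in chromosome order. The neighbours of Resf1 lie between -0.11 and 0.38 at 5 weeks, while Znf41-ps and Gm13238 near Zfp991 reach 1.01 and 1.28 at 14 weeks.

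The genes whose pattern was most like each member were found by Pearson's r of log2(signal + 16) over the 22 arrays, with each age's mean subtracted, among 8334 genes with a mean log2 level of at least 6. These values carry the genotype differences that chose the members, and the points share arrays. Zfp979 and Zfp991 lie below that level and were not among the genes compared. Of those compared, Resf1 was the nearest to Zfp979, with r of 0.910, and to Zfp991, with 0.916, while the r between Zfp979 and Zfp991 was higher, at 0.937. Next to Resf1 came Rpp40, a subunit of ribonuclease P, with 0.952, Cdc123, a translation initiation factor chaperone, with 0.926, and Cfap53, a cilia protein, with 0.917. Next to Zfp445 came Cyp7b1, the oxysterol 7-alpha-hydroxylase of bile acid synthesis, with 0.926, Bmyc with 0.914 and Obp2a, an odorant-binding lipocalin, with 0.903. Rpp40 with 0.904 and Cdc123 with 0.872 followed Resf1 for Zfp979, and Obp2a with 0.906 and Cdc123 with 0.888 for Zfp991. The lowest r between members was 0.735, for Zfp979 with Zfp445.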

How the data were processed

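RNA from 22 mouse livers was measured on one-colour Affymetrix arrays. Linear intensity values of 45101 probe sets were deposited by the authors. Their mean after trimming 2% from each end is 100.001 on all 22 arrays, so they had been scaled, by software not given in the sources used here. Of the probe sets, the platform annotation gives 34958 a single gene symbol and 932 several, and leaves 9211 out. The brightest probe set stood for each of 18194 genes.

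Groups came from the labels alone. The scale of analysis was log2(signal + 16). Linear models came from limma 3.58.1 (lmFit, eBayes) under R 4.3.3, data handling from the package data.table (version 1.17.8), and there were no covariates: the 3 contrasts at 5 weeks in 1 fit of 12 arrays, the contrast at 14 weeks in a fit of 10 and the WT ages in a fit of 22. Genes with p under 0.05 after Benjamini-Hochberg adjustment across all genes are the ones called. Counts of genes with an unadjusted p under 0.05 are given without the share over all genes, so no excess is read from them. The step was tested on simulated data. Animals of a group are separate mice, and their number limits the precision.

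The members, lists and tests were chosen with earlier results of these data known. Named genes are the members, up to 4 called genes per list or neighbourhood, and the 3 genes most like each member. Trim28, Setdb1, Atf7ip, Rara, Tcaim, Zkscan7, Zfp105, Zfp982, Rex2, Zfp980, Etfbkmt and Amn1 were named after their values were seen, as was the choice of the promoters shown and of CpG marking. Alternatives were the scaling, the added constant, the level filter, the probe set rule, the fit and each animal left out.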

Additional observations from a re-analysis of the deposited data

Results flagged for a closer look

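Within each group of 4 or 5 animals, the highest and lowest signal of each of the 11 probe sets were set against the others of the group by Dixon's ratio. In 55 such groups 4 values stood apart, and chance gives about 1 in 20. On the dim Zfp991 probe set 1440518_at, Trim24-/- Rara+/- animal 66 at 5 weeks read 4.75, below the 9.04 to 9.88 of the others. On the same probe set 1 WT animal at 14 weeks read 23.9, above the 6.42 to 10.6 of the others. On the Zfp991 probe set 1451477_at, 1 Trim24-/- animal at 14 weeks read 129, above 55.7 to 76.7. On the Resf1 probe set 1452397_at, another Trim24-/- animal at 14 weeks read 218, above 93.7 to 124. None of the 4 was on the brightest probe set of a member.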

How the results depend on the processing

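For the 4 genes in the 3 contrasts with WT at one age, all 221 values under the alternatives were positive, and 201 moved by less than the spread between animals. These contrasts chose the genes for being higher without overlap. The level filter, the choice of groups in the fit and the variance trend leave a difference as it is. Nothing is therefore read from these counts. In the tested contrasts 136 of 142 kept their direction and side of the threshold. With a constant of 1 in place of 16, the differences of Zfp979 and Zfp991 were 3.001 and 2.95 (Trim24-/- at 5 weeks), 2.87 and 2.25 (Trim24-/- Rara+/-) and 2.93 and 2.87 (Trim24-/- at 14 weeks); with 64 they were 0.36 and 0.82, 0.30 and 0.49, and 0.79 and 1.28. With 64 Resf1 was 1.16 in Trim24-/- Rara+/- and 2.08 at 14 weeks. With the mean of all probe sets Zfp991 was 0.87, 0.35 and 1.55 in the same order, and Resf1 1.16 in Trim24-/- Rara+/- and 1.95 at 14 weeks. Quantile normalisation gave 1.06 for Zfp979 in Trim24-/- Rara+/-.

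Between WT ages, Zfp979 passed the threshold with a constant of 1 (1.61, limma adjusted p 0.00860), and Resf1 turned to 0.075 with the mean of probe sets. For Trim24-/- Rara+/- against Trim24-/-, Resf1 turned to 0.099, 0.23 and 0.016 without Trim24-/- animal 6, Trim24-/- animal 8 or Trim24-/- Rara+/- animal 73, and Zfp979 to 0.054 without Trim24-/- animal 8. With 1 animal left out the estimates ran from -0.35 to 0.23 for Resf1 and from -0.31 to 0.054 for Zfp979. The cause was not tested.

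The number of genes called moved most. Trim24-/- against WT at 5 weeks (109) gave 28 with a constant of 1, 20 with only these 2 groups and 12 to 143 with 1 animal left out. Trim24-/- Rara+/- against WT (10) gave 19 with centred arrays or only genes above the median level, 23 with 2 groups, 31 with all arrays, 17 with array weights and 6 to 12 with 1 animal left out. Trim24-/- Rara+/- against Trim24-/- (26) gave 14 with quantile normalisation, 13 centred, 0 with a constant of 1, 55 with 64, 103 above the median level, 43 with the mean of probe sets, 5 with 2 groups, 103 with all arrays, 52 with a variance trend, 322 with array weights and 0 to 102 with 1 animal left out. Trim24-/- against WT at 14 weeks (44) gave 28 with a constant of 1, 72 above the median level, 93 with all arrays and 28 to 40 with 1 animal left out. The WT ages (5183) gave 3067 above the median level and 4317 to 5040 with 1 animal left out. Zfp979 lies below the median level and has no value under that filter. No paired analysis was possible because the groups share no replicate numbers.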
